A study of Mus musculus with 8 samples.

Results

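Mouse genes of primordial germ cell specification, 8 of the 21900 protein-coding genes in the annotation, were examined for where ZGLP1 peak summits lay around them. They were taken by name: the transcription factor genes Prdm1, Prdm14, Tfap2c and Elf3, the membrane protein genes Ifitm1, Ifitm2 and Ifitm3, and the receptor gene Kit. For each gene the summits inside it, within 10 kb of its start or end and within 50 kb of its start or end were counted. Positions are on mm10 (GRCm38).

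Primordial germ cells are the founders of the germ line, set aside in the early embryo when BMP signals reach the epiblast. PRDM1 represses the somatic programme in them, PRDM14 restores pluripotency-associated expression and loss of DNA methylation, and TFAP2C acts with both. IFITM proteins mark the cells that become competent for this fate, and KIT is the receptor through which the cells later receive survival and migration signals.

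ZGLP1 is a nuclear protein with GATA-type zinc fingers that the study's title links to the oogenic fate. All cells came from C57BL/6 x DBA2 embryonic stem cells (ESCs) and carried V5-tagged Zglp1 under doxycycline (Dox), so every group, inputs included, overexpressed it. The 5 libraries made with an anti-V5 antibody came from primordial germ cell-like cells (PGCLCs), made in culture from ESCs, on culture day 7 with Dox only, day 7 with Dox and retinoic acid (RA), day 8 with Dox only and day 8 with Dox and RA, and from ESCs given Dox and RA for 24 h. PGCLCs were treated from culture day 3 and sorted for the SC reporter and mCherry, and ESCs for mCherry. Another 3 libraries were inputs, from day 8 PGCLCs of each treatment and from the ESCs. Each group had 1 library.

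The ESC lines carry the reporters called BVSC in the labels. In this field BV is a fluorescent protein driven by Prdm1 sequence and SC is one driven by Dppa3 sequence. Reads from such reporters and from the Prdm1 and Dppa3 loci themselves cannot be told apart in a list of summits. The deposited values were 32927 summits, 1 base each, in 1 list that names no library and gives no height. Groups were therefore not compared, no replicate error exists, and all values below are counts and distances without a test. The depth is unknown, so where no summit is listed, binding under the authors' cut-off cannot be told apart from no binding. Whether the cells expressed germ cell markers could not be checked in such a list.

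Summits lay at all 8 genes, but in different arrangements. Prdm1, Tfap2c and Kit had many summits along the gene, Elf3 had 5 around a short gene, Prdm14 had 2, and each Ifitm gene had 1. Of the 8 genes, 6 held a summit inside, against 54.5% of protein-coding genes. Within 10 kb of an end all 8 had one, against 66.6%, and within 50 kb all 8 had one, against 78.0%. Within 1 kb of an end 6 had one, against 52.9%. The 8 genes together had 31 separate summits within 10 kb and 69 inside or within 50 kb. The median over the 8 genes was 3.0 summits within 10 kb, where that over all protein-coding genes was 1.

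**Figure D1:**
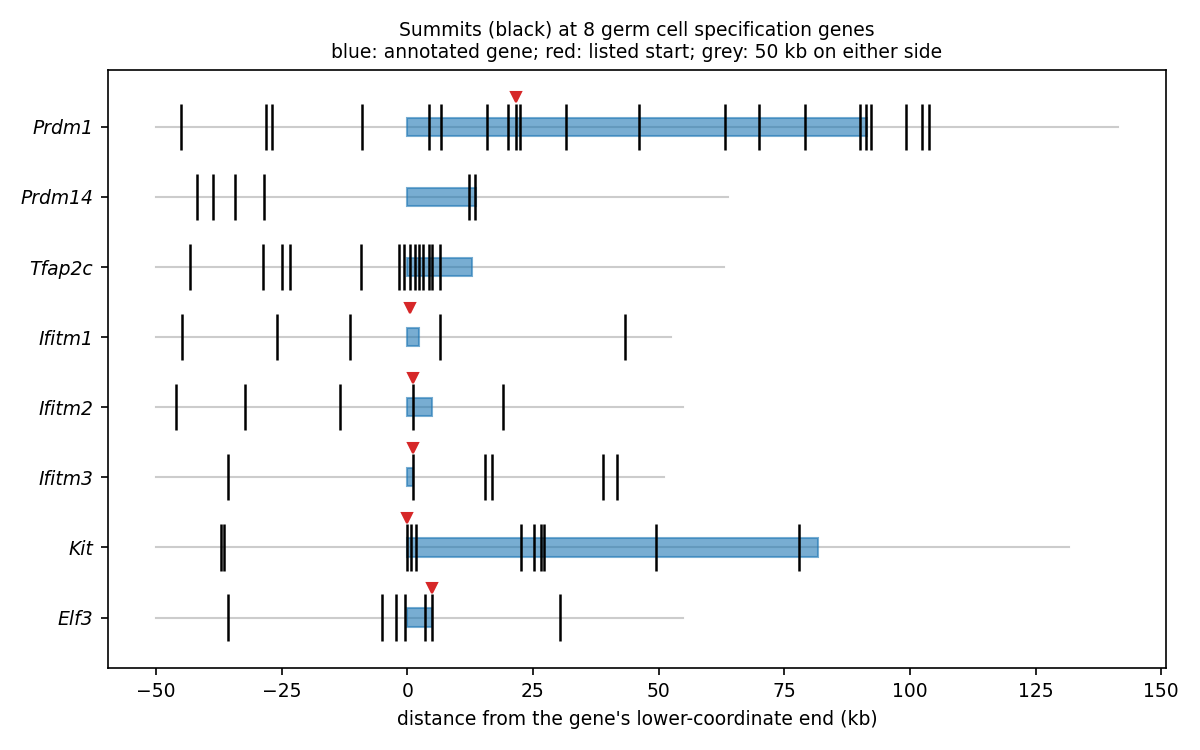
Summits (black ticks) at the 8 genes, against the distance in kb from the gene's lower-coordinate end; blue bars are the annotated genes, red triangles the start sites listed for 6 of them, and grey lines reach 50 kb beyond each end. Ticks crowd over the lower end of Tfap2c (9 in 8122 bases) and spread along Prdm1 (13 inside), while each Ifitm gene has 1 within 10 kb.

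The start sites of 6 of the genes and the sequence around them were available from RefSeq (GRCm38.p6), as windows from 250 bases before to 50 bases after each start. Prdm14 and Tfap2c had no entry. A summit lay in the window of 5 of the 6 genes, against 28.4% of 17492 protein-coding genes with a listed start. Within 1 kb of a listed start the count was the same 5 of 6, against 55.7%. The sequences below show these starts, each from 120 bases before the start to 30 bases from it, 5′ to 3′ on the gene's strand. Capitals mark the summit base with 5 bases on either side, and Prdm1 has fewer because the printed stretch ends there. Ifitm1 is shown for contrast because its window held no summit.
Prdm1 (chr10:44458719-44458868, minus strand): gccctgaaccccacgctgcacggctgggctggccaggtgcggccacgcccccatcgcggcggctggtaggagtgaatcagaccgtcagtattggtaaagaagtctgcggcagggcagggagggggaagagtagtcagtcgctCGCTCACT
Kit (chr5:75574867-75575016, plus strand): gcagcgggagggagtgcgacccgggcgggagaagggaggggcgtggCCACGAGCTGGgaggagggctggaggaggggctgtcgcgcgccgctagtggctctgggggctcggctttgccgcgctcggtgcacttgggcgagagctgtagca
Elf3 (chr1:135258443-135258592, minus strand): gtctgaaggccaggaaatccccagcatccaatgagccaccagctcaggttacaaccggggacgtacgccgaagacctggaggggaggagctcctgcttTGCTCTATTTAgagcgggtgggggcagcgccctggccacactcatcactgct
Ifitm3 (chr7:141010715-141010864, minus strand): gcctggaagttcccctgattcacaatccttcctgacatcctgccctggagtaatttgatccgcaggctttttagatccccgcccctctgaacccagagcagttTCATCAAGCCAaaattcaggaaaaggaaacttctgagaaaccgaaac
Ifitm2 (chr7:140955932-140956081, minus strand): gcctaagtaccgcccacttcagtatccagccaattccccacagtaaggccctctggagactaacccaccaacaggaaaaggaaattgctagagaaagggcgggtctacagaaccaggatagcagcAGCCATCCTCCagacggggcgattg
Ifitm1 (chr7:140967956-140968105, plus strand): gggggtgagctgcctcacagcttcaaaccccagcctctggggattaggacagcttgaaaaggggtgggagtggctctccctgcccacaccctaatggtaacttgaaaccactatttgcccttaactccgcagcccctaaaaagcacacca

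Counting the start base as 0, the summit of Prdm1 lay at position 27, that of Ifitm2 at 10, that of Ifitm3 at -12, that of Elf3 at -17 and that of Kit at -69. Of protein-coding genes with a listed start, 3.22% had a summit as close as the one at Ifitm2 and 3.74% as close as at Ifitm3. The shares were 5.15% for Elf3, 8.02% for Prdm1 and 19.0% for Kit. Over all genes, the nearest summit fell most often in the first 50 bases from the start, in 649 genes between 0 and 25 and 650 between 25 and 50. Those of Ifitm2 and Prdm1 lay there, and those of Ifitm3 and Elf3 in the bin just before the start, which held 619 genes. The bin from -75 to -50, with that of Kit, held 500. The Ifitm1 summit closest to its start lay 5854 bases after it.

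**Figure D2:**
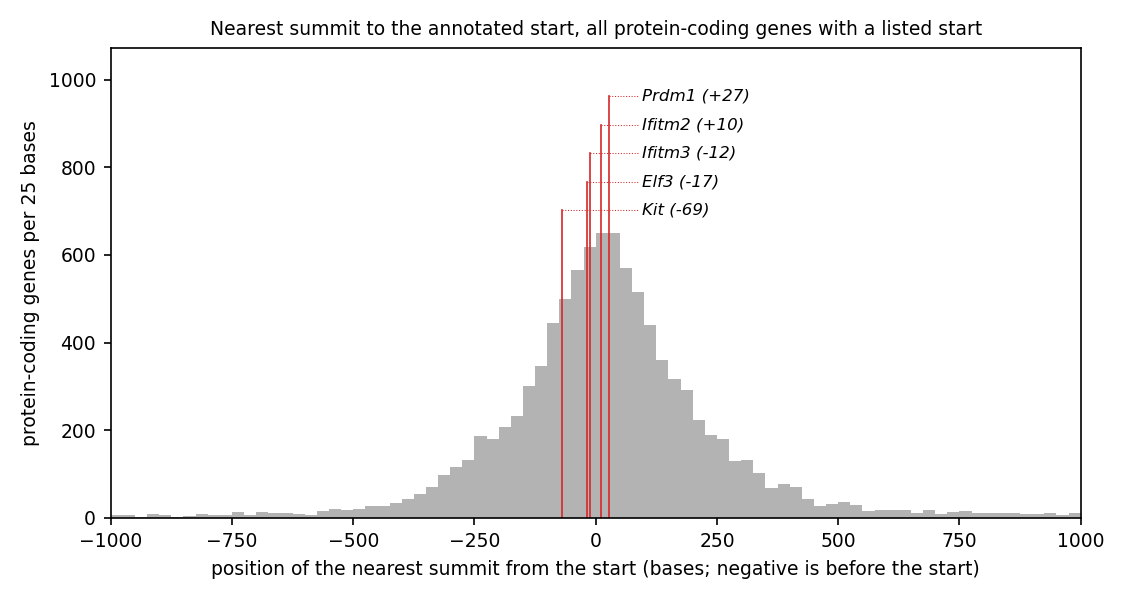
Number of protein-coding genes (grey bars, per 25 bases) by the position of the nearest summit from the listed start, in bases, with the 5 genes of germ cell specification whose nearest summit is within 1 kb in red. The 5 red lines stand between -69 and 27, inside the central peak of the bars, and Ifitm1, at 5854, is off the axis.

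Base composition differed among these 6 start windows. In windows with a summit over all genes the median was 24 CG dinucleotides and 63% G+C, and in windows without one 7 and 53%. Prdm1 and Kit had 20 CG each, with 59.7% and 69.0% G+C. Elf3 had 12 CG and 59.0% G+C. Ifitm2 had 4 CG and Ifitm3 had 5, below the median of windows without a summit, yet each held a summit, whereas Ifitm1 with 5 CG did not. Their G+C shares were 49.7%, 53.0% and 51.3%.

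GATA, the core word that GATA-type zinc fingers recognise, was searched for on both strands. It stood in 2 of the 5 member windows with a summit, those of Ifitm2 and Ifitm3, against 39.1% of all 4966 windows with a summit and 58.9% of the 12526 without. Ifitm2 had 3 matches, at -130 to -127, at -98 to -95 on the opposite strand and at -4 to -1. The middle of the last stood at -12.5 from the summit. Ifitm3 had 1, at -234 to -231, with its middle at -220.5 from the summit. That match is also the only one in these windows of the longer words searched, AGATAA with its variant AGATAG and TGATAA with its variant TGATAG, each of which contains GATA. Those words were in 13.9% of windows with a summit and 31.1% of those without. The windows of Prdm1, Kit and Elf3 had no GATA, and neither had that of Ifitm1. Windows with a summit were richer in G+C (median 63%) than those without (53%). These shares, and those of the words below, were not adjusted for base composition.

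Other words were also counted on both strands. The GC box word GGGCGG, bound by SP and KLF proteins, was found in Ifitm2, Ifitm3 and Kit, against 70.9% of windows with a summit. GCCNNNGGC, the word bound by AP-2 proteins such as TFAP2C, was found in Kit alone of the 6, at -134 to -126, against 26.9% of windows with a summit. GGAAG, an ETS word of the kind bound by ELF3, was in 5 of the 6 windows, all but that of Elf3, against 72.2% of all windows. GAAANNGAA, part of the element through which interferon acts on genes such as the Ifitm genes, was added after the sequences had been read. It stood 1 time in Ifitm2 and 2 times in Ifitm3, in none of the other 4 windows, and in 8.22% of all windows. The Ifitm2 match, at -46 to -38, and the Ifitm3 match at 2 to 10 lie in the closest stretch of these 2 windows. That stretch shared 22 of 24 aligned bases, so these 2 matches are not independent. A match is only a run of letters and does not show a bound site.

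Prdm1 (chromosome 10, 44437174 to 44528558, minus strand), the gene of the repressor BLIMP1, held 13 summits inside its 91385 bases. Another 4 lay below it and 4 above it within 50 kb. Only 0.379% of the 4226 protein-coding genes of 0.5 to 2 times its length held 13 or more inside, and their median was 1. Summits clustered at 2 places. Around the listed start at 44458748, which lies within the annotated span, they stood at positions -789, 27 and 1438 from that start. Around the upper end of the span, they stood 1237 and 32 bases inside and 987 bases outside.

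The other summits inside Prdm1 were spread. Between the listed start and the upper end, 5 stood at -10041, -24542, -41648, -48403 and -57569 from that start. After the start, 3 stood at 5649, 14781 and 17304. Below the gene, the summit at 44428121 was 9053 bases from Prdm1 and 133 bases before the listed start of the long noncoding RNA gene Gm35028. Above the gene, 3 more lay 7904, 11095 and 12383 bases outside. No other protein-coding gene lay within 50 kb, and Prdm1 was the closest protein-coding gene for 20 of the 21 summits. The exception, at 44392080, was closer to Atg5. The PGCLCs had been sorted for the BV reporter before expansion, per the labels. Whether this bears on the summits at Prdm1 was not tested.

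Tfap2c (chromosome 2, 172545678 to 172558622), the gene of the AP-2 gamma factor, had 10 summits within 10 kb and 7 of them inside. Its rank was 20 of the 21900 genes by summits within 10 kb, ties counted at their best rank. Of the 7455 genes of 0.5 to 2 times its length, 0.349% had as many within 10 kb and 0.121% as many inside. The first summit of a dense run lay at 172544101, 1577 bases below the gene, and the last at 172552223, 6399 bases from the upper end. Neighbours in this run of 9 summits were 657 to 1513 bases apart. Joining summits up to 2 kb apart over the genome, a distance chosen after the values were seen, gave 25399 runs, of which 9 held 9 or more summits. With summits merged within 1 kb, the number within 10 kb of Tfap2c was 6, reached by 1.93% of genes of like length, and the number inside was 4, reached by 0.858%.

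Summits at Tfap2c lay on one side. None stood above 172552223, neither in the rest of the gene nor in the 50 kb above it. Below it, beyond the dense run, summits stood 9139, 23226, 25006, 28625 and 43251 bases from the gene. The last of these was inside the long noncoding RNA gene Gm40009 and was closer to Fam209 than to Tfap2c. No other protein-coding gene lay within 50 kb.

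Prdm14 (chromosome 1, 13113428 to 13127163), the gene of a PR domain factor of the pluripotency and germ cell programmes, had 2 summits, both inside. They lay 217 and 1381 bases below its upper end, at 13126946 and 13125782. At least 2 within 10 kb were found at 49.7% of the 7582 genes of like length, so by that number Prdm14 was near the middle. At least 2 inside were held by 20.2% of these genes, and by 14.1% with summits merged within 1 kb. Another 4 summits stood 28501, 34197, 38625 and 41885 bases below the gene, and none within 50 kb above it. Prdm14 was the closest protein-coding gene for all 6, and its only protein-coding neighbour within 50 kb was Ncoa2, 11942 bases away.

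Kit (chromosome 5, 75574987 to 75656722, plus strand) held 8 summits inside and 11 inside or within 50 kb. Of the 4603 genes of like length, 1.98% held 8 or more inside. By the other counts Kit stood out less. Its 4 summits within 10 kb were reached by 12.4% of these genes, and its 11 within 50 kb by 7.47%. The summits of Kit came in groups. At the start, 3 lay at -69, 724 and 1824 bases from the first of 2 listed starts, which are 4 bases apart. Further in, 4 lay between 22560 and 27313 bases after the start, and single summits stood at 49407 and 77990. Before the gene, a pair 786 bases apart lay at 37139 and 36353 bases from the start, and no summit lay within 50 kb beyond the end. Kit was the closest protein-coding gene for all 11, and no other lay within 50 kb. The PGCLCs were induced with SCF, the ligand of KIT, and expanded on feeder cells that carry it, per the labels. Whether this bears on the summits at Kit was not tested.

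Elf3 (chromosome 1, 135253574 to 135258472, minus strand), which encodes an ETS factor best known from epithelia, had 5 summits within 10 kb of its 4899 bases. Of 4877 genes of like length, 10.6% had as many. Summits stood 17 bases before the start and 1299 bases inside. The other 3 lay beyond the other end of the gene, 470, 2211 and 5019 bases outside, so more summits stood past its end than at its start. Within 50 kb there was 1 further summit on each side. That at 135283966 lay inside the neighbour Rnpep, 118 bases after a start of that gene, and that at 135217930 lay 35644 bases from Elf3, its closest protein-coding gene. Timm17a, the other protein-coding neighbour within 50 kb, held 1 summit inside.

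The 3 Ifitm genes lie on chromosome 7, from 140954837 to 141010744, with Ifitm2 first, then Ifitm1 and Ifitm3. Ifitm1 and Ifitm3 are 39763 bases apart, with the pseudogene Gm7514 and the long noncoding RNA gene Gm33504 between them. The proteins of the Ifitm genes restrict entry of viruses, and Ifitm1 and Ifitm3 are classical markers of early germ cells. Each had 1 summit within 10 kb, and these were 3 different summits. That of Ifitm2 (140954837 to 140959686, minus strand) lay inside the gene at 140955951, 10 bases after the listed start but 1114 bases from the nearer end of the annotated span. That of Ifitm3 (141009590 to 141010744, minus strand) lay at 141010756. That of Ifitm1 (140967429 to 140969827, plus strand) lay at 140973930, 4103 bases beyond its end. No summit stood between 140973930 and 141010756, a stretch of 36826 bases.

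By number the Ifitm genes did not stand out. At least 1 summit within 10 kb was found at 58.3% of genes of the length of Ifitm1, 66.2% of genes of the length of Ifitm2 and 23.1% of genes of the length of Ifitm3. Within 50 kb they had 5, 5 and 6 summits, but these are shared, and the 3 genes together had 10 separate ones. Of these, the ones at 140922631 and 140941558 lay inside the neighbours Nlrp6 and Pgghg. Beyond Ifitm3, those at 141025032 and 141026440 were closer to Ifitm6. Ifitm5, between Pgghg and Ifitm2, held none inside. The start windows of the 3 genes were not near copies of each other, with 53.8% to 55.6% identical bases over aligned positions. The closest stretch of Ifitm2 and Ifitm3 shared 22 of 24 aligned bases.

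**Figure D3:**
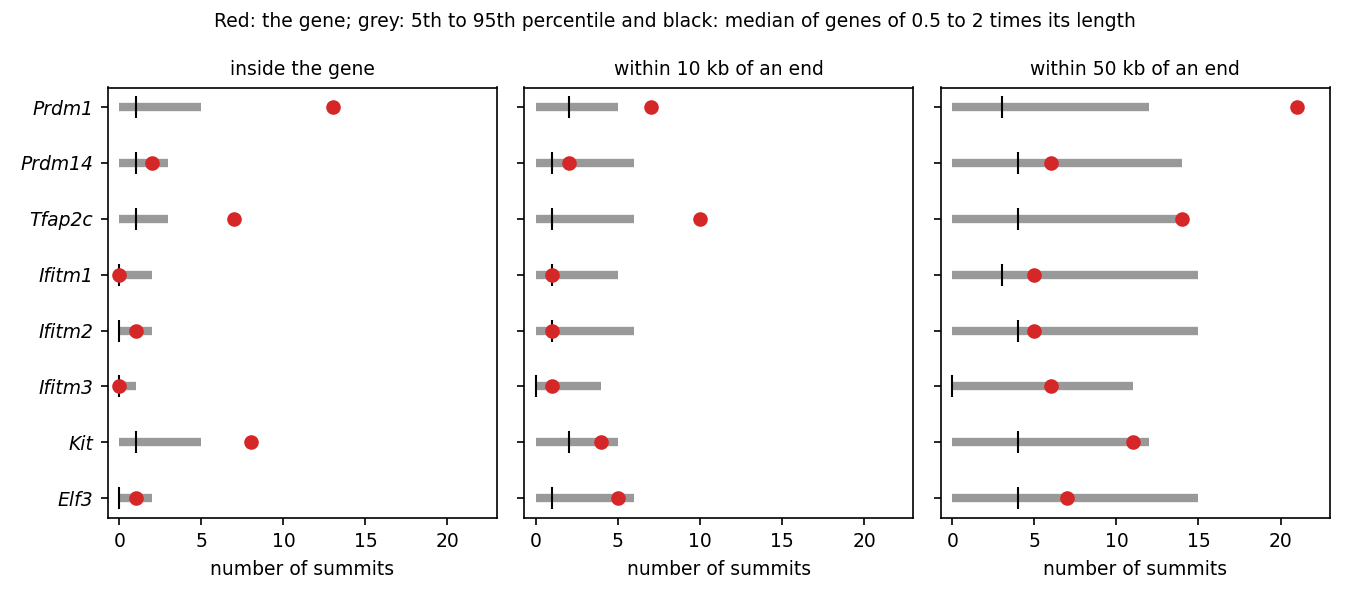
Number of summits inside each gene, within 10 kb and within 50 kb of an end (red points), with the 5th to 95th percentile (grey bars) and median (black marks) of protein-coding genes of 0.5 to 2 times its length. Prdm1, Tfap2c and Kit lie beyond the grey bar for summits inside the gene (13, 7 and 8), and the Ifitm genes lie within it in every panel.

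A share of the summits lay away from gene ends. Counting only summits over 1 kb from every protein-coding gene end, 7 of the 8 genes still had one within 10 kb, against 35.6% of protein-coding genes. Tfap2c had 8 such summits, Prdm1 5, Elf3 3, Kit 2, and Prdm14, Ifitm1 and Ifitm2 had 1 each. The exception was Ifitm3, whose only summit within 10 kb was the one at its start. That of Ifitm2 counted as away from an end only because its listed start lies inside the annotated span.

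The families to which these genes belong were counted in the same way, beside the 66.6% of all protein-coding genes with a summit within 10 kb. In the Prdm family all 15 annotated genes of 16 names had a summit within 10 kb, with Prdm1 highest at 7 and Prdm10, with 4, next. The median of this family was 2 summits within 10 kb, where that over all protein-coding genes was 1. By summits inside, Prdm1 had 13 and Prdm16, a far longer gene of 321239 bases, had 11. In the Tfap2 family Tfap2a had 11 within 10 kb and Tfap2c 10, while Tfap2b had 3, Tfap2d 2 and Tfap2e 1. In the Ifitm family 6 of 7 genes had one, with Ifitm6 highest at 3. Ifitm10 had none within 10 kb of an end but held 1 inside its 47945 bases. Of the class III receptor tyrosine kinases Kit and Pdgfra had 4 each, Pdgfrb 3, Flt3 2 and Csf1r none. In the Elf family Elf1, Elf2 and Elf3 had 5 each, Elf4 had 3 and Elf5 had none.

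**Figure D4:**
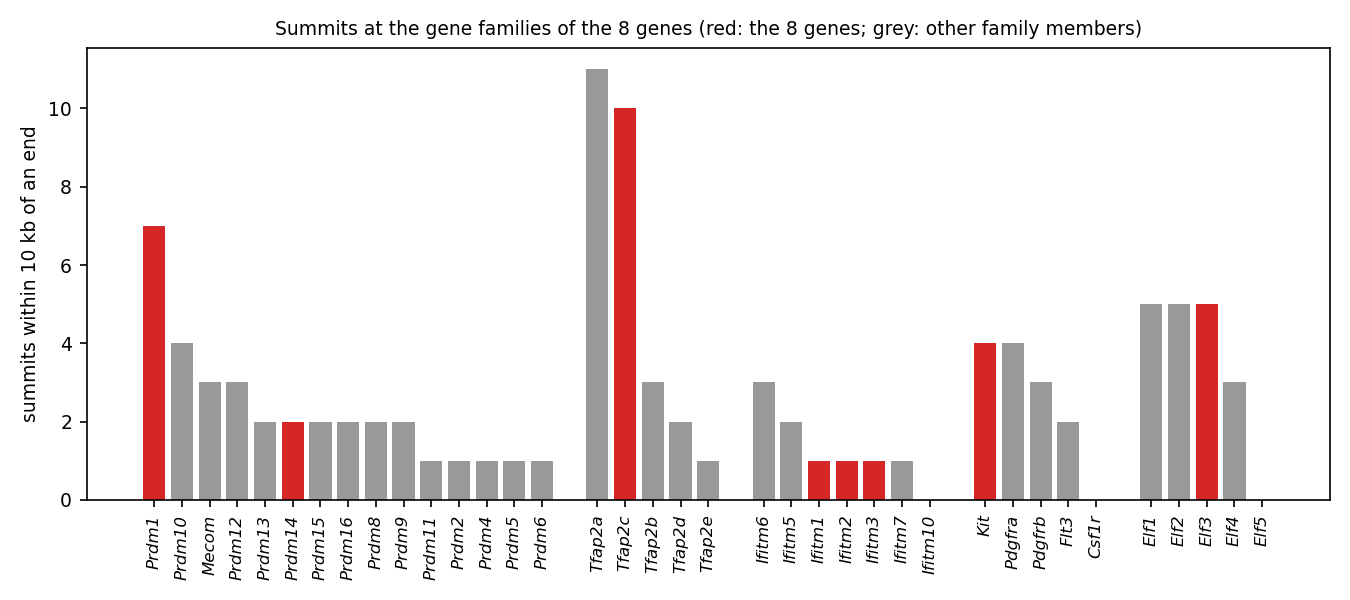
Summits within 10 kb of an end (bar height) for every annotated gene of 5 families, with the 8 genes of germ cell specification in red and the other family members in grey. Prdm1 has the tallest bar of the Prdm family (7), and Tfap2a (11) and Tfap2c (10) stand above the other 3 Tfap2 genes (at most 3).

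Around these genes, 49 others of the specification pathway were counted in 4 lists, and 45 of them had a summit within 10 kb, beside the 66.6% of all protein-coding genes. Of 13 BMP and WNT signalling genes, which induce the fate, 11 had one. Distances in these lists are to the nearer annotated gene end unless a start is named. By that measure the closest were at Smad1 (92 bases), a BMP effector, and Ctnnb1 (141 bases), the WNT effector. Next were Smad4 (148 bases), the common partner of SMAD proteins, and Acvr1 (154 bases), a BMP receptor. Smad5 had a summit 7 bases after a listed start, though its closest to an annotated end was 665 bases away. Of the ligand genes, Wnt3a had none within 10 kb of an end but held 1 inside its 42716 bases. Bmp2 had none inside or within 50 kb, with the closest 606562 bases away. The median of this list was 1 summit within 10 kb, the same as over all protein-coding genes.

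Of 14 partner and other germ cell factor genes 13 had a summit within 10 kb, with a median of 5.0. The closest were at Sox2 (42 bases) and Pou5f1 (81 bases), which encode pluripotency factors, Dppa3 (65 bases), a germ cell marker, and Prmt5 (78 bases), the gene of an arginine methyltransferase that binds PRDM1. Cbfa2t3 had none within 10 kb of its ends but held 3 inside, 1 of them 407 bases after a listed start. Its paralogue Cbfa2t2, which encodes the corepressor bound by PRDM14, also held 3 inside and had 5 within 10 kb.

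Of 12 genes of the somatic programme and of DNA methylation, which are silenced or lowered at specification, 11 had a summit, with a median of 2.5. The closest were at Fgf5 (41 bases), an epiblast growth factor gene, Uhrf1 (53 bases), needed to maintain DNA methylation, Snai1 (98 bases) and Mixl1 (216 bases), mesoderm regulators. T, the gene of the mesoderm factor brachyury, had none, with the closest 18862 bases away. All 10 genes of survival, homing and adhesion had one, with a median of 2.5. The closest were at the adhesion genes Pecam1 (24 bases), Itgb1 (52 bases) and Cdh1 (86 bases) and at the homing receptor gene Cxcr4 (40 bases). Kitl, which encodes the KIT ligand, had 1 within 10 kb, 520 bases from an end. Among genes with a listed start, a summit lay in the start window of 3 of 11 BMP and WNT genes. The same held for 5 of 11 partner genes, 3 of 9 somatic programme genes and 3 of 8 survival, homing and adhesion genes. Over all protein-coding genes with a listed start the share was 28.4%. These lists were not compared with genes of like length.

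Exact matches become rarer as counts rise, so their number does not measure how unusual a gene is. Few genes had the same counts as Prdm1, Tfap2c or Kit. For each of them 1 other protein-coding gene had the same 3 counts (inside, within 10 kb and within 50 kb). It was C77080 (41827 bases) for Prdm1 (91385), Llgl2 (31752) for Tfap2c (12945) and Ppp2r2c (88233) for Kit (81736). Those of the other 5 genes were common to more. Elf3 shared its counts with 19 genes, Ifitm3 with 90, Prdm14 with 98, Ifitm1 with 121 and Ifitm2 with 216. The closest in length were Idh3b, Gtpbp6 and Nkx6-3 for Elf3, Syp, Cnih1 and Dnaja1 for Prdm14, and Hspb2, 1700029P11Rik and Mia for Ifitm3. For Ifitm1 they were Pycard, Bhlhe23 and Dolk, and for Ifitm2 they were Ficd, Arsa and Ldhd.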

How the data were processed

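Chromatin from V5-Zglp1 cells was immunoprecipitated with an anti-V5 antibody and sequenced. Trimming tools (Trim Galore 0.4.1 with cutadapt 1.9.1), peak tools (HOMER 4.9.1 and MACS2 2.1.1.20160309), alignment tools (SAMtools 1.3, Picard 2.1.0 and Bowtie 1.1.2), bedtools and the build mm10 are listed with no settings, per the submitters' processing notes. The other values the authors deposited are positions in bases, with start equal to end in all 32927 lines. The sources used here do not give how peaks were called, filtered and joined over libraries.

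Gene ends came from RefSeq GRCm38.p6 (49980 genes, 21900 protein-coding) and starts, strands and sequences from its promoter table. The former holds no exons, so exonic and intronic summits were not separated. The planned 300 bases around each summit were replaced by start windows, and protein identity was not computed. Motifs were searched on both strands in 1 window a gene, that with a summit first. Windows were aligned globally and locally with Biopython 1.88. No test was made. Named genes are the 8 genes, up to 4 of each list with the closest summits, those with none within 10 kb, neighbours within 50 kb, and the 3 genes closest in length with the same counts. Cbfa2t2, Kitl, Smad5, Atg5, Fam209, Prdm10 and Prdm16 were named after their values were seen. The 8 genes and all lists were chosen with earlier results of these data known. Counts were tested on simulated summits, where 499 of 499 genes equalled a direct count. Figures were drawn with matplotlib 3.10.9 and values computed with pandas 2.3.3 and numpy 2.4.6 in Python 3.11.15.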

Additional observations from a re-analysis of the deposited data

How the results depend on the processing

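All 8 genes had a summit within 5, 20 and 50 kb, with summits merged within 1 kb, counting only those nearest to the gene, and with positions taken as 0-based. The number was 6 within 1 kb, 7 with summits over 1 kb from every protein-coding end and 6 by start alone, where Prdm14 and Tfap2c had no listed start. Of 62 alternative counts at single genes, 20 moved by over 1.5 times, each by a changed distance except Prdm1 by start alone (4 summits) and Tfap2c with merging (6 summits). The share of protein-coding genes with a summit, 66.6% within 10 kb, was 52.9% within 1 kb, 62.4% within 5 kb, 71.1% within 20 kb, 78.0% within 50 kb, 69.1% on autosomes, 45.6% over all annotated genes and 35.6% with summits over 1 kb from every protein-coding end. GATA was in 2 start windows with a summit. It was in 1 in the last 100 bases of the window, 1 in the last 200 bases and 1 with the longer words. No paired analysis was possible because the summit list does not name its libraries. As the depth is unknown, no absence of a summit can be read as absence of binding.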

Other observations

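The dense run at Tfap2c was set beside the other runs of 9 or more summits with neighbours up to 2 kb apart, a comparison chosen after its values were seen. Of these 9 runs, 3 lay in Sfi1 and 2 overlapped no protein-coding gene. The others lay at Setd1b with Rhof (12 summits), Crlf2 (10), Tnrc18 (10) and Tfap2c (9). No run was screened here for repeated sequence, so runs in such sequence are not separated from the others. Of the 9 summits of the run at Tfap2c, 2 were within 1 kb of an end of the gene. Bmp4, the ligand that induces primordial germ cells and was in the culture medium of the PGCLCs, had 9 summits within 10 kb and 4 of them inside its 7145 bases. It was named after its values were seen. The closest was 1257 bases before its listed start, with none in the start window. Whether the ligand in the medium bears on the summits at Bmp4 was not tested.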
